A study of Mus musculus with 6 samples.

Results

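Matrix metalloproteinases are secreted or membrane-bound zinc proteases that cut collagen, elastin and other proteins of the extracellular matrix, and tissue inhibitors of metalloproteinases (TIMPs) block them by occupying the active site. Described here are 7 metalloproteinase genes (Mmp2, Mmp9, Mmp12, Mmp13, Mmp14, Mmp15 and Mmp19) and 3 inhibitor genes (Timp1, Timp2 and Timp3) in the livers of ethanol-fed mice with and without Cd44. The members were taken by name: each of the 10 symbols was matched to its Ensembl row in the deposited gene count table, which holds 54682 rows. All 10 were found, and all 10 were among the 14145 genes with enough counts to be tested.

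Liver RNA came from 3 mice homozygous for a targeted, constitutive Cd44 null allele (B6.Cg-Cd44tm1Hbg/J, called Cd44 knockout below) and 3 wild-type mice, with 1 poly(A) RNA-seq library per mouse. All 6 mice drank alcohol: they were fed Lieber-DeCarli liquid food containing 5% ethanol by volume over 10 days, were given 5 g/kg ethanol by a single gavage on day 11, and were sampled 9 hours after it. The question addressed is how the liver under alcohol differs when Cd44, a hyaluronan and osteopontin receptor of leukocytes and other cells, is missing. Not given in the sources used here were ages, sexes and whether the wild-type mice were littermates, and mice without ethanol were not analysed here. Levels are given as CPM, which scales a count by library size and TMM factor, or, where genes are set against each other, as TPM, which also divides by the length of merged exons. Fold changes are knockout over wild type on the log2 scale with their standard error, and means are given ± SD with n = 3 mice per genotype.

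In the liver many metalloproteinases are made by macrophages, stellate cells and endothelial cells, and the enzymes take part both in matrix breakdown and in the release of cytokines, receptors and adhesion molecules from cell surfaces. MMP12 is the macrophage elastase, MMP13 is the main interstitial collagenase of rodents, and MMP2 and MMP9 are the gelatinases. MMP14 and MMP15 are anchored in the membrane; MMP14 activates pro-MMP2 together with TIMP2 and can also shed the ectodomain of CD44, while MMP9 can dock on CD44 at the cell surface.

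The libraries held 15429784 to 19293777 counts in Ensembl genes, and a gene with 0 counts could have had up to 3 counts, or 0.155 to 0.194 CPM, by counting error alone. Cd44 itself had 1, 0 and 0 counts in knockout mice 1, 2 and 3, against 590, 175 and 568 counts in wild-type mice 1, 2 and 3. No library went against its label. Cd44 was the 1 gene of 14145 (0.00707%) past an adjusted p of 0.05 in edgeR's quasi-likelihood test (adjusted p = 0.0403), and it missed the threshold in 5 of the 6 fits with 1 library left out. Hepatocyte markers summed to 89018 to 111773 CPM in knockout and 84801 to 100850 CPM in wild-type livers, as the labelled tissue requires. In bulk liver RNA fewer cells of a type and less RNA per cell cannot be told apart, and this holds for every level below.

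Upstream sequence is shown for Mmp12, Mmp13 and Timp1, the 3 members that DESeq2 called lower, so that their promoters can be read side by side. RefSeq windows (GRCm38.p6) of 250 bases before a start site were found for 7 of the 10 members, in 8 windows because Mmp12 has an outer and an inner start. The windows are written 5′ to 3′ on the plus strand, without bases that lie in an annotated exon of the gene. Capitals mark the AP-1 motif TGANTCA, which binds FOS and JUN dimers, and the TATA box motif TATAAA, each searched on both strands (the AP-1 motif reads the same on both).
Mmp12 outer start, chr9:7344147-7344380: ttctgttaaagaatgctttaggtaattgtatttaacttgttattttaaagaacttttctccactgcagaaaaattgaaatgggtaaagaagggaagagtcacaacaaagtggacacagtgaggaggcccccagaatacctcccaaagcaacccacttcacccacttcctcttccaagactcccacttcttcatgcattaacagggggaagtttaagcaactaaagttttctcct
Mmp12 inner start, chr9:7347124-7347373: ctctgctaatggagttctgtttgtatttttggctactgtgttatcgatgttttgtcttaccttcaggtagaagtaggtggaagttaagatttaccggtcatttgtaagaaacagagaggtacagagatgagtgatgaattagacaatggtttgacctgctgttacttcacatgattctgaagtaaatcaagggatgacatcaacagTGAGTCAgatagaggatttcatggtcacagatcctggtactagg
Mmp13, chr9:7272264-7272513: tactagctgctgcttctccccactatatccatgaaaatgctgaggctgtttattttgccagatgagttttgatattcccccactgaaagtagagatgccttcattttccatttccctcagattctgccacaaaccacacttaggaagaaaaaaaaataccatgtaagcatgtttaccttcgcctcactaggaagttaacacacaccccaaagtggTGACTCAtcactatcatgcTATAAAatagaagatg
Timp1, chrX:20869916-20870165: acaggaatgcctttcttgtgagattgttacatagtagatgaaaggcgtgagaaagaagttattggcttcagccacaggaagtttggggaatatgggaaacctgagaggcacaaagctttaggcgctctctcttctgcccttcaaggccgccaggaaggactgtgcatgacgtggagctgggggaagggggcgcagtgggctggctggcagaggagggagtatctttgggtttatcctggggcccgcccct
The AP-1 motif was present in 2 of the 8 member windows, those of Mmp13 and of the inner Mmp12 start, and in 6.75% of all 32851 RefSeq windows of the same length. The TATA box motif was present in 1 of the 8, that of Mmp13, and in 12.4% of all windows. The inner Mmp12 window lies within the span of the 2 annotated transcripts that begin at or near the outer start, and holds no annotated exon base. Right after this window, at base 7347374 of chromosome 9, 2 other protein-coding transcripts are annotated to begin. These matches describe the letters of the windows and no more, and gene-level counts do not tell which Mmp12 start was used.

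Mmp12 transcripts were 5.23 times lower in Cd44 knockout livers than in wild-type livers, the largest difference relative to its error among the 10 genes. Mmp12 (ENSMUSG00000049723; GRCm38, chromosome 9, 7344381 to 7369499, plus strand) had 80, 137 and 65 counts in knockout mice 1, 2 and 3, against 647, 311 and 627 counts in wild-type mice 1, 2 and 3. In CPM these were 5.30, 6.85 and 4.45 in the knockout mice, against 35.1, 20.3 and 31.9 in the wild-type mice. The genotypes did not overlap, and the lowest wild-type mouse, number 2, still stood well above the highest knockout mouse. Means were 5.54 ± 1.22 CPM in knockout and 29.1 ± 7.82 CPM in wild-type livers, a log2 fold change of -2.39 ± 0.25. By p value Mmp12 ranked 3 of 14145 genes in edgeR, just short of the threshold (unadjusted p = 1.26e-05, adjusted p = 0.0596). DESeq2 called it (adjusted p = 2.8e-13), limma-voom did not (adjusted p = 0.283), and in edgeR it passed without wild-type mouse 2 (log2 fold change -2.58, adjusted p = 0.00547). Its only overlapping gene model, Mmp1b on the opposite strand, had 0 counts in all 6 libraries.

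Over the 10 members, 0 passed an adjusted p of 0.05 in edgeR, where 0.00707% of all genes tested did. DESeq2 called 3 lower (Mmp12, Mmp13 and Timp1), where it called 2.4% of all genes (1.53% lower). Below an unadjusted p of 0.05 in edgeR lay 5 members, Mmp12, Timp1, Mmp13, Mmp9 and Mmp15, each with a lower mean in the knockout, where 12.6% of all genes lay below it (7.46% lower and 5.1% higher). Every knockout mouse lay below every wild-type mouse for 6 members, these 5 and Mmp19, as did 9.42% of all genes, and every knockout mouse lay above every wild-type mouse for 0 members, as against 8.81% of all genes. All 10 had a lower mean in the knockout, as did 51.1% of all genes, and the median log2 fold change was -0.48 over the 10 and -0.01 over all genes. Mmp9 and Timp1 reached the count minimum through the wild-type libraries alone, so that for this pair a lower knockout level was built into being tested. Among the other 8, 3 lay below an unadjusted p of 0.05, 4 did not overlap between genotypes and the median was -0.39. Of these 8, DESeq2 called Mmp12 and Mmp13, where it called 1.53% of all genes lower.

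**Figure D1:**
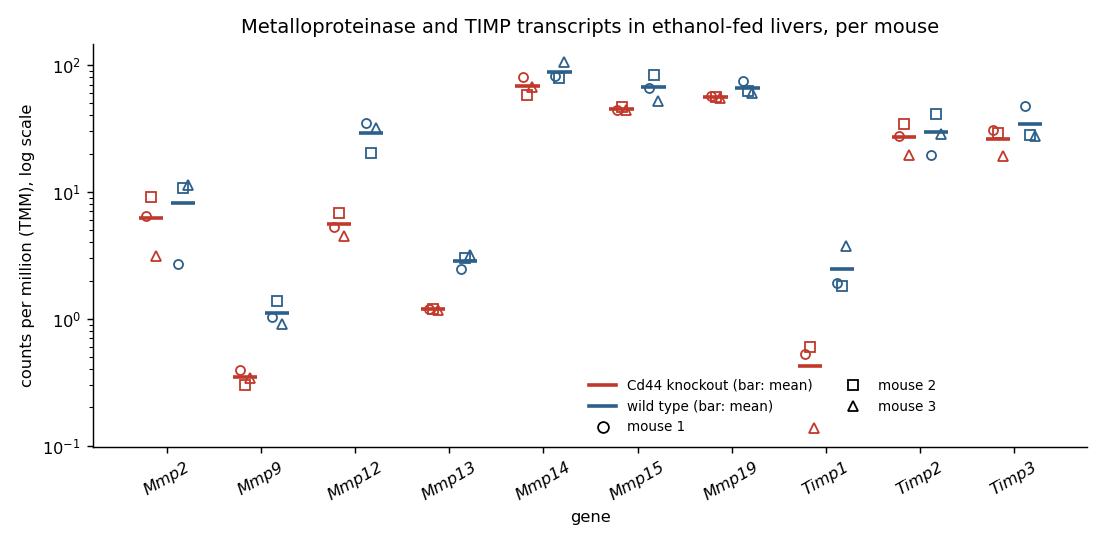
Level of each of the 10 genes in each mouse (y axis, CPM on a log scale), with Cd44 knockout mice in red left of wild-type mice in blue; symbols give the mouse number and bars the mean of 3. Mmp9, Mmp12, Mmp13, Mmp15, Mmp19 and Timp1 show no overlap between genotypes, and Mmp12 has means of 5.54 CPM in knockout and 29.1 CPM in wild-type livers.

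The collagenase gene Mmp13 (ENSMUSG00000050578; chromosome 9, 7272514 to 7283331) lies next to Mmp12, with 61.1 kb between them, and was lower in the knockout at a much lower level. It had 1.19, 1.20 and 1.16 CPM in knockout mice 1, 2 and 3 (18, 24 and 17 counts), against 2.44, 3.00 and 3.15 CPM in wild-type mice 1, 2 and 3 (45, 46 and 62 counts). The knockout mice were almost equal to one another and all below the wild-type mice. The log2 fold change was -1.27 ± 0.29 (edgeR adjusted p = 0.227, unadjusted p = 0.0024; DESeq2 adjusted p = 0.0446).

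Mmp13 and Mmp12 open a row of 10 metalloproteinase genes on chromosome 9 that spans 427 kb (7272514 to 7699585), and their neighbours did not share one pattern. Mmp1b, Mmp1a, Mmp10 and Mmp20 had 0 counts in every library, which allows up to 0.194 CPM in the shallowest one. Mmp27 had 0.331, 0.850 and 0.342 CPM in knockout mice 1, 2 and 3, against 1.41, 0.847 and 1.22 CPM in wild-type mice 1, 2 and 3, with knockout mouse 2 level with wild-type mouse 2 (log2 fold change -1.15 ± 0.49, edgeR adjusted p = 0.391, unadjusted p = 0.0468). Like Timp1, it reached the count minimum through the wild-type libraries. Mmp3 (stromelysin-1) and Mmp7 (matrilysin) were too low to be tested and were highest in mouse 2 of each genotype. Mmp3 had 5, 24 and 3 counts in knockout mice 1, 2 and 3, against 3, 22 and 6 counts in wild-type mice 1, 2 and 3, and Mmp7 had 4, 34 and 7 counts in the knockout mice, against 5, 24 and 6 counts in the wild-type mice. Mmp8, the neutrophil collagenase, had 1, 0 and 1 counts in knockout mice and 5, 0 and 17 counts in wild-type mice.

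**Figure D2:**
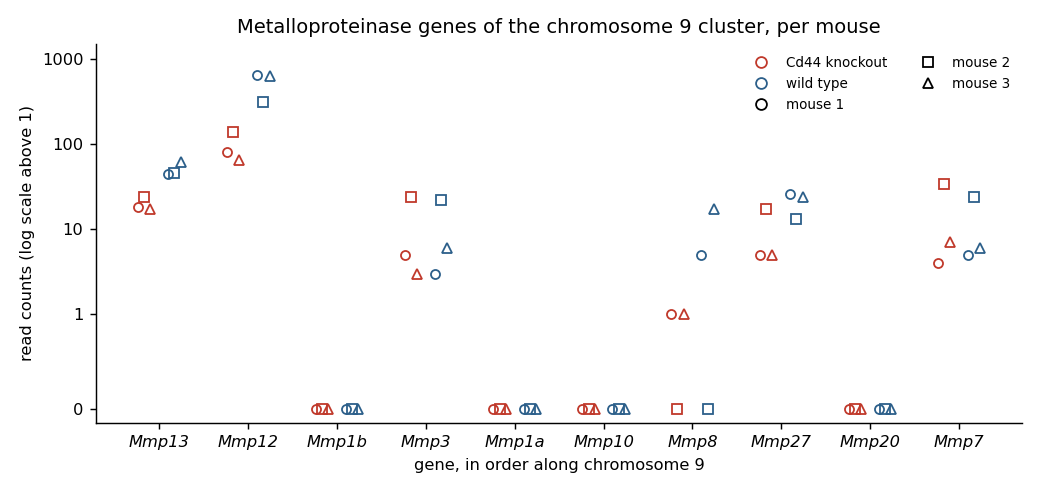
Read counts per mouse (y axis, log scale above 1) for the 10 metalloproteinase genes of chromosome 9 in their order along the chromosome, Cd44 knockout in red and wild type in blue. Mmp13 and Mmp12 separate the genotypes, Mmp3 and Mmp7 are highest in mouse 2 of each genotype, and 4 genes have 0 counts throughout.

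The gelatinase genes differed from each other. Mmp9 (ENSMUSG00000017737; chromosome 2, 164940780 to 164955850) was barely detected, with 6, 6 and 5 counts in knockout mice 1, 2 and 3, against 19, 21 and 18 counts in wild-type mice 1, 2 and 3. That is 0.347 ± 0.049 CPM in knockout and 1.11 ± 0.235 CPM in wild-type livers, without overlap (log2 fold change -1.66 ± 0.41, edgeR adjusted p = 0.228, unadjusted p = 0.00371). Mmp9 lies on the chromosome of Cd44, 62.0 Mb away. Mmp2 (ENSMUSG00000031740; chromosome 8, 92827291 to 92853420) varied widely within each genotype, at 6.50, 9.05 and 3.15 CPM in knockout mice 1, 2 and 3, against 2.72, 10.8 and 11.2 CPM in wild-type mice 1, 2 and 3. The lowest of all 6 was a wild-type mouse, and the groups overlapped almost fully (log2 fold change -0.39 ± 0.57, edgeR adjusted p = 0.846). Its fold change ran from -0.81 without wild-type mouse 1 to -0.07 without knockout mouse 3.

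The membrane-type genes Mmp14 and Mmp15 and the secreted Mmp19, which acts on basement membrane proteins, were the most abundant of the 7 metalloproteinases and gave log2 fold changes between -0.58 and -0.24. Mmp15 (ENSMUSG00000031790; chromosome 8, 95352268 to 95375080) had 43.8, 46.4 and 44.0 CPM in knockout mice 1, 2 and 3, against 65.4, 83.2 and 51.7 CPM in wild-type mice 1, 2 and 3. The knockout mice lay close together below all wild-type mice (log2 fold change -0.58 ± 0.17, edgeR adjusted p = 0.254, unadjusted p = 0.00976), and the fold change was -0.38 without wild-type mouse 2. Mmp19 (ENSMUSG00000025355; chromosome 10, 128790910 to 128800824) had 56.8, 55.4 and 54.5 CPM in knockout mice, against 74.6, 62.7 and 60.2 CPM in wild-type mice. Here too the genotypes did not overlap, but the gap was small (log2 fold change -0.24 ± 0.12, edgeR adjusted p = 0.452, unadjusted p = 0.0739); Mmp19 shares 789 of its 3533 exonic bases with Tmem198b on the opposite strand, which had 420 counts over the 6 libraries against 6278 for Mmp19. Mmp14 (ENSMUSG00000000957; chromosome 14, 54431612 to 54445364) had 80.2, 58.3 and 67.4 CPM in knockout mice, against 81.5, 78.6 and 105 CPM in wild-type mice. Knockout mouse 1 lay within the wild-type range (log2 fold change -0.36 ± 0.17, edgeR adjusted p = 0.418).

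Of the inhibitors, Timp1 was lower in the knockout by as large a factor as Mmp12, while Timp2 and Timp3 overlapped between genotypes. Timp1 (ENSMUSG00000001131; chromosome X, 20870166 to 20874735) is the inducible inhibitor, and had 8, 12 and 2 counts in knockout mice 1, 2 and 3, against 35, 28 and 73 counts in wild-type mice 1, 2 and 3. In CPM it had 0.530, 0.600 and 0.137 in the knockout mice, against 1.90, 1.82 and 3.71 in the wild-type mice, with wild-type mouse 3 highest and knockout mouse 3 lowest. The log2 fold change was -2.51 ± 0.55 (edgeR adjusted p = 0.227, unadjusted p = 0.00174; DESeq2 adjusted p = 0.00659). Timp1 lies inside the span of Syn1 on the opposite strand without sharing an exonic base, and Syn1 had 72 counts over the 6 libraries against 158 for Timp1.

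Timp2, which both inhibits MMP14 and helps it activate pro-MMP2, gave the smallest difference of the 10. Timp2 (ENSMUSG00000017466; chromosome 11, 118301069 to 118355740) had 27.3, 34.5 and 19.4 CPM in knockout mice 1, 2 and 3, against 19.4, 40.7 and 28.4 CPM in wild-type mice 1, 2 and 3. The groups covered almost the same range (log2 fold change -0.12 ± 0.30, edgeR adjusted p = 0.915), and the sign turned without knockout mouse 3 (0.08) or without wild-type mouse 2 (0.19). Timp3, the matrix-bound inhibitor that also blocks ADAM17, had 30.8, 28.8 and 19.3 CPM in knockout mice, against 47.5, 27.8 and 27.6 CPM in wild-type mice (ENSMUSG00000020044; chromosome 10, 86300372 to 86349506). Only wild-type mouse 1 stood above the knockout mice, and the log2 fold change of -0.38 ± 0.26 (edgeR adjusted p = 0.619) became -0.07 without it. Timp3 shares 1733 of its 8144 exonic bases with Syn3 on the opposite strand, which had 119 counts against 3166 for Timp3.

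**Figure D3:**
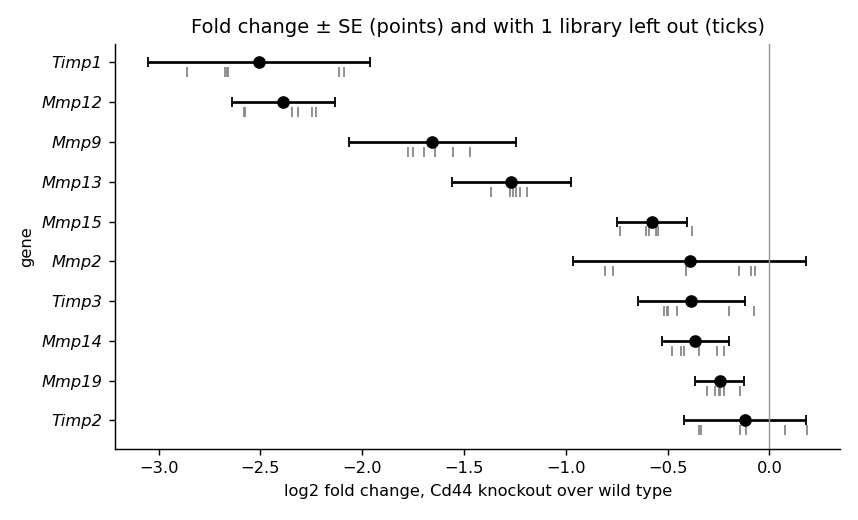
Log2 fold change of knockout over wild type (x axis) for the 10 genes, ordered by size; points with bars give the edgeR estimate ± SE and the grey ticks below each the 6 estimates with 1 library left out. Timp1 (-2.51) and Mmp12 (-2.39) lie farthest from 0, and Timp2 is the one gene whose ticks fall on both sides of 0.

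Set against each other per length, the membrane-type and basement membrane enzymes led in both genotypes, and Mmp12 stood below Mmp2 in knockout livers but above it in wild-type livers. In knockout livers the order by mean TPM was Mmp19 (39.4), Mmp14 (28.7), Mmp15 (20.8), Timp2 (17.7), Timp3 (8.17), Mmp2 (4.75), Mmp12 (1.94), Timp1 (1.23), Mmp13 (1.11) and Mmp9 (0.244). In wild-type livers it was Mmp19 (49.4), Mmp14 (39.5), Mmp15 (32.4), Timp2 (19.8), Timp3 (11.2), Mmp12 (10.8), Timp1 (7.52), Mmp2 (6.44), Mmp13 (2.84) and Mmp9 (0.818). Among wild-type mice only 2 neighbouring steps of this order were free of overlap in TPM, Mmp15 above Timp2 and Mmp13 above Mmp9, while among knockout mice the steps from Mmp19 to Mmp14, Mmp14 to Mmp15, Timp2 to Timp3 and Mmp13 to Mmp9 were. Timp3, Mmp12, Timp1 and Mmp2 overlapped as neighbours in wild-type livers. The order of Mmp14 and Mmp19 depended on the length used: with the longest transcript Mmp14 had 59.6 and Mmp19 42.0 TPM in wild-type livers.

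As a share of the summed TPM of the 7 metalloproteinases, Mmp12 made up 1.79%, 2.48% and 1.66% in knockout mice 1, 2 and 3, against 9.03%, 5.20% and 8.26% in wild-type mice 1, 2 and 3. The summed TPM of the 7 was 102, 104 and 84.7 in knockout mice, against 145, 130 and 151 in wild-type mice, without overlap. That of the 3 inhibitors was 28.5, 35.5 and 17.2 in knockout mice, against 35.1, 38.5 and 41.9 in wild-type mice, where knockout mouse 2 lay just above wild-type mouse 1. The ratio of Mmp12 to Timp1 in TPM overlapped between genotypes, at 1.23, 1.40 and 3.99 in knockout mice and 2.27, 1.36 and 1.05 in wild-type mice; the highest ratio rests on the 2 Timp1 counts of knockout mouse 3. The ratio of Mmp14 to Timp2 overlapped as well, at 1.92, 1.11 and 2.28 in knockout mice and 2.74, 1.26 and 2.41 in wild-type mice.

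Macrophage markers were lower in the knockout livers along with Mmp12. All 15 markers listed for macrophages had a lower mean in the knockout (51.1% of all genes), 12 of them at an unadjusted p under 0.05 in edgeR (7.46% of all genes). The median log2 fold change was -1.37 against -0.01 over all genes. After adjustment 0 passed in edgeR, and DESeq2 called 7 lower (1.53% of all genes). Among them were Lyz2, the myeloid lysozyme (67.7 ± 12 CPM in knockout and 152 ± 43.8 CPM in wild-type livers, log2 fold change -1.17 ± 0.24), Lgals3, or galectin-3 (-1.85 ± 0.38), the lysosomal glycoprotein Cd68 (-1.41 ± 0.31) and the complement receptor Vsig4 (-1.22 ± 0.30), each with an edgeR adjusted p of 0.227 or 0.228. The 15 markers summed to 316, 342 and 309 CPM in knockout mice 1, 2 and 3, against 1029, 385 and 908 CPM in wild-type mice 1, 2 and 3. Wild-type mouse 2 came close to the knockout mice in its marker sum, and it had the lowest Mmp12 level of the wild-type mice (20.3 CPM).

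Mmp12 was also expressed per macrophage marker, a ratio chosen after the values were seen. Per 100 CPM of summed markers there were 1.68, 2.00 and 1.44 CPM of Mmp12 in knockout mice 1, 2 and 3, against 3.42, 5.26 and 3.51 CPM in wild-type mice 1, 2 and 3. The genotypes did not overlap (1.71 ± 0.283 in knockout and 4.06 ± 1.04 in wild-type livers). The two-sided exact permutation p was 0.1, the smallest that 3 against 3 mice allow. Adjusted over the 4 ratios to macrophage markers, the only ratios tested, it was 0.133. Single markers did not all separate the genotypes in this way. Trem2 had 1.86, 2.30 and 0.822 CPM in knockout mice 1, 2 and 3, against 4.02, 4.76 and 11.1 CPM in wild-type mice 1, 2 and 3. Mmp12 per Trem2 overlapped between genotypes, as did Mmp12 per Gpnmb, per Marco, per Cd5l and per Timd4. Set against Cd68 alone, without overlap, Mmp12 stood at 53.7, 77.8 and 55.6 CPM per 100 CPM in knockout mice, against 111, 154 and 122 in wild-type mice. Set against Adgre1, which encodes F4/80, it stood at 61.5, 63.1 and 59.6 in knockout mice, against 88.4, 174 and 114 in wild-type mice (exact permutation p = 0.1 for either marker). Mmp13 behaved otherwise: per 100 CPM of summed markers it had 0.377, 0.351 and 0.376 CPM in knockout mice, against 0.238, 0.778 and 0.347 CPM in wild-type mice, with the knockout mice inside the wild-type range (exact permutation p = 1.0).

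**Figure D4:**
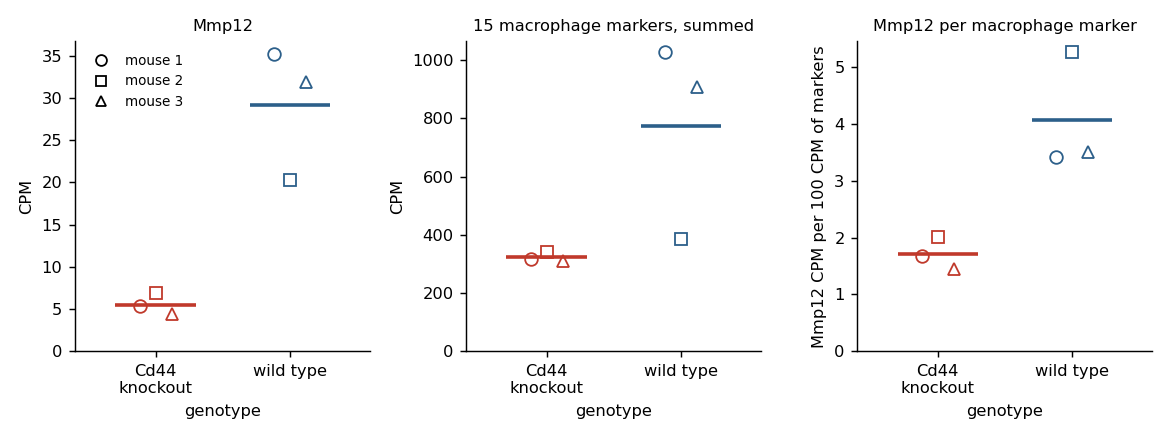
Mmp12 level (left, CPM), summed level of 15 macrophage markers (middle, CPM) and Mmp12 CPM per 100 CPM of those markers (right) in each Cd44 knockout (red) and wild-type (blue) mouse, with symbols for the mouse number and bars for the mean of 3. Wild-type mouse 2 lies at 385 CPM in the marker sum, near the knockout mice, and highest of all 6 in the ratio at 5.26.

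Markers of the other cell types that the tissue could hold follow. Of 10 neutrophil markers, given beside Mmp9 and Mmp8, 3 could be tested, all 3 with a lower mean (51.1% of all genes). The list summed to 2.81 to 6.83 CPM in knockout and 5.21 to 8.85 CPM in wild-type livers. Csf3r, the G-CSF receptor, had 3.71, 2.30 and 1.44 CPM in knockout mice 1, 2 and 3. In wild-type mice 1, 2 and 3 it had 4.02, 2.15 and 4.73 CPM. The genotypes overlapped (log2 fold change -0.55 ± 0.42, edgeR adjusted p = 0.66). S100a9, a calgranulin subunit, was the 1 marker at an unadjusted p under 0.05 (7.46% of all genes, lower), with 1.06, 0.250 and 0.479 CPM in knockout mice, against 1.63, 1.5 and 2.04 CPM in wild-type mice (-1.55 ± 0.52, edgeR adjusted p = 0.295). It reached the count minimum in all wild-type mice but, of the knockouts, in mouse 1 only. As with Timp1, a lower knockout level was built into its being tested. By mean TPM, S100a9 (2.83 in knockout and 8.80 in wild-type livers) and S100a8 (1.91 and 3.06) stood above Csf3r (1.74 and 2.72). The 7 untested markers had 0 to 15 counts in each library.

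Stellate cells and fibroblasts are a known source of Timp1, Mmp2 and Mmp14. Their 12 markers summed to 632 to 728 CPM in knockout and 636 to 875 CPM in wild-type livers, a sum in which Dcn and Ecm1 took a large part. A lower mean was found for 9 of the 12 (51.1% of all genes), 3 of them at an unadjusted p under 0.05 (7.46% of all genes), with a median log2 fold change of -0.55, 0 past adjustment in edgeR and 1 called by DESeq2. The fibrillar collagen gene Col3a1 was that gene, with 24.1, 41.3 and 16.4 CPM in knockout mice 1, 2 and 3, against 44.4, 64.1 and 118 CPM in wild-type mice 1, 2 and 3, without overlap (-1.47 ± 0.46, edgeR adjusted p = 0.291, DESeq2 adjusted p = 0.0192). Col1a1, another fibrillar collagen gene, had 18.7 ± 8.67 CPM in knockout and 46.3 ± 27.8 CPM in wild-type livers. Knockout mouse 2 lay within the wild-type range of Col1a1 (-1.30 ± 0.50, edgeR adjusted p = 0.369). Pdgfrb did not overlap between genotypes (-0.63 ± 0.22, edgeR adjusted p = 0.309). Mean levels were higher in knockout than in wild-type livers for Reln (65.7 against 60.5 CPM), Colec11 (42.0 against 37.8 CPM) and Ecm1 (162 against 137 CPM).

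Sinusoidal endothelial markers summed to 237 to 328 CPM in knockout and 218 to 448 CPM in wild-type livers. Of these, 5 of 8 had a lower mean (51.1% of all genes), 1 of them at an unadjusted p under 0.05 (7.46% of all genes), with a median of -0.19. Cholangiocyte markers had a lower mean in 5 of 5 tested (51.1% of all genes), 1 of them at an unadjusted p under 0.05 (7.46% of all genes), with a median of -0.65. Krt19, among these 5, reached the count minimum in all wild-type mice but, of the knockouts, in mouse 2 only. As with Timp1, a lower knockout level was built into its being tested. The cholangiocyte markers summed to 27.5 to 36.3 CPM in knockout and 51.8 to 65.1 CPM in wild-type livers. Most of that sum was Spp1, or osteopontin, a CD44 ligand that macrophages also express. It had 22.1 ± 3.74 CPM in knockout and 43.8 ± 8.18 CPM in wild-type livers and was the 1 cholangiocyte marker at an unadjusted p under 0.05 (-0.98 ± 0.18, edgeR adjusted p = 0.227, DESeq2 adjusted p = 0.0019). Hepatocyte markers had a higher mean in 6 of 8 cases and a lower mean in 2 (median 0.17), where 51.1% of all genes had a lower mean. At an unadjusted p under 0.05 lay 1 of the 8 (12.6% of all genes). The 1 hepatocyte marker at an unadjusted p under 0.05 went the other way: Pck1, a gluconeogenic enzyme, had 860 ± 164 CPM in knockout and 1932 ± 1140.3 CPM in wild-type livers, without overlap (-1.17 ± 0.40, edgeR adjusted p = 0.309, DESeq2 adjusted p = 0.0498). The part of these cells in the levels of the metalloproteinases and inhibitors was not tested.

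Among related protease genes outside the 10, 0 passed an adjusted p of 0.05 in edgeR. Of 16 further metalloproteinase genes and Timp4, 6 had enough counts to be tested, with a median log2 fold change of -0.17. A lower mean was found for 4 (51.1% of all genes) and a higher mean for 2. Mmp27 alone lay below an unadjusted p of 0.05 (7.46% of all genes, lower). It reached the count minimum in all wild-type mice but, of the knockouts, in mouse 2 only. As with Timp1, a lower knockout level was built into its being tested. Mmp28 (epilysin) gave 1.46, 3.45 and 1.37 CPM in knockout mice, against 0.543, 0.782 and 3.00 CPM in wild-type mice, with the genotypes overlapping (0.53 ± 0.69, edgeR adjusted p = 0.821). Of the ADAM family genes, 11 of 12 tested had a lower mean (51.1% of all genes), 3 of them at an unadjusted p under 0.05 (7.46% of all genes). The median of this family was -0.34, with 0 past adjustment in edgeR and 1 in DESeq2. Adam22, an ADAM without protease activity, had the smallest p of the list at a very low level, with 0.224 ± 0.0361 CPM in knockout and 0.776 ± 0.131 CPM in wild-type livers and no overlap (-1.77 ± 0.45, edgeR adjusted p = 0.228, unadjusted p = 0.00439). Adam22 and Adam12, another of the 3, reached the count minimum through the wild-type libraries alone. For these genes a lower knockout level was built into being tested. Adam8, a leukocyte protease, had 1.06, 1.40 and 0.685 CPM in knockout mice, against 2.55, 1.56 and 12 CPM in wild-type mice (-2.34 ± 0.80, edgeR adjusted p = 0.307, DESeq2 adjusted p = 0.0394), and gave -0.96 without wild-type mouse 3. Adam17, which releases TNF from cells and is inhibited by TIMP3, had 21.6 ± 2.11 CPM in knockout and 27.1 ± 3.64 CPM in wild-type livers (-0.33 ± 0.15, adjusted p = 0.413). Of the matrix-bound ADAMTS proteases, 10 of 12 tested had a lower mean and 3 an unadjusted p under 0.05, against the same 51.1% and 7.46% of all genes (median -0.51, 0 past adjustment in edgeR or DESeq2). Adamts4, an aggrecanase, was at -2.34 ± 0.80 (edgeR adjusted p = 0.303) and overlapped through wild-type mouse 2.

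Plasmin activates several pro-metalloproteinases, and genes of its system were among the activators, inhibitors and surface partners of the family that were measured. Plaur, the urokinase receptor, had 1.79 ± 0.483 CPM in knockout and 5.38 ± 2.14 CPM in wild-type livers (-1.58 ± 0.38, edgeR adjusted p = 0.227, DESeq2 adjusted p = 0.0158). Thbs1, or thrombospondin 1, which binds several metalloproteinases and lies 15.2 Mb from Cd44, gave -2.09 ± 0.46 (edgeR adjusted p = 0.227). Tfpi2, a secreted inhibitor of plasmin, went the other way, at 37.4, 32.8 and 42.1 CPM in knockout mice, against 21.6, 27.2 and 20.5 CPM in wild-type mice (0.70 ± 0.16, edgeR adjusted p = 0.227, DESeq2 adjusted p = 0.0261). Over the list, 14 of 21 tested genes had a lower mean (51.1% of all genes) and 7 a higher mean. At an unadjusted p under 0.05 lay 6 of the lower and 1 of the higher (7.46% and 5.1% of all genes). The median of the list was -0.21, and 0 passed adjustment in edgeR.

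Elastic fibre genes were counted because elastin, the main protein of these fibres, is the classic substrate of MMP12. Of 17 tested, 15 had a lower mean (51.1% of all genes), 3 at an unadjusted p under 0.05 (7.46% of all genes), with a median log2 fold change of -0.38 and 0 past adjustment in edgeR or DESeq2. These 3 were Emilin2 (-1.15 ± 0.35), of the elastin microfibril interfacer family and overlapping through wild-type mouse 2, Efemp2 (-0.64 ± 0.21), or fibulin-4, and the microfibril gene Fbn1 (-1.0 ± 0.37), with edgeR adjusted p values of 0.259, 0.279 and 0.322. Efemp2 shares 173 exonic bases with Mus81 on the opposite strand, which had 1058 counts over the 6 libraries against 538 for Efemp2. Efemp2 is uncertain for that reason. Fbn1 lies 22.4 Mb from Cd44. Eln, the elastin gene itself, overlapped between genotypes. It had 5.04, 5.35 and 2.40 CPM in knockout mice 1, 2 and 3, against 3.26, 5.93 and 7.48 CPM in wild-type mice 1, 2 and 3.

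**Figure D5:**
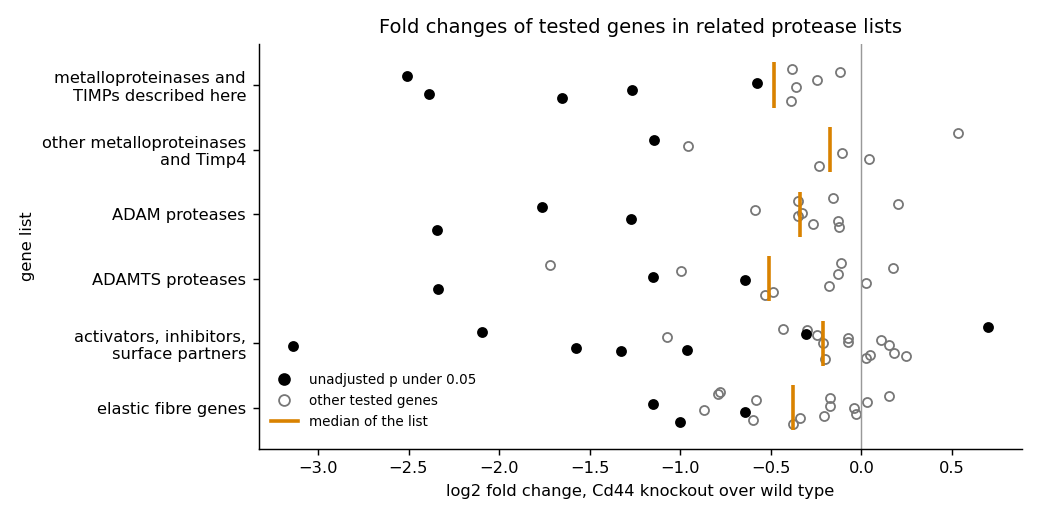
Log2 fold change of knockout over wild type (x axis) for every tested gene of 6 lists (rows), with filled points at an unadjusted p under 0.05 in edgeR and the bar at the median of the list. The medians run from -0.51 for ADAMTS proteases to -0.17 for the other metalloproteinases, and most points lie left of 0.

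The genes most like Mmp12 across the 6 livers were sought among 11311 other protein-coding genes of at least 1 on the mean log2 CPM scale, by the root mean square difference between log2 levels centred on their mean. The closest 5 were Gstp2 (0.302), Fam83a (0.331), Ear2 (0.343), Ccl2 (0.347) and Rgs1 (0.371), where 0 would be an identical profile. Ear2 encodes an eosinophil-associated ribonuclease with close gene copies, which makes its counts uncertain, and had 1.06, 2.20 and 1.64 CPM in knockout mice 1, 2 and 3, against 10.4, 4.17 and 11.6 CPM in wild-type mice 1, 2 and 3. Ccl2, the monocyte chemoattractant, had 1.72, 1.05 and 1.16 CPM in knockout mice, against 11.1, 5.47 and 6.82 CPM in wild-type mice. In both, as in Mmp12, wild-type mouse 2 was the lowest wild-type mouse and still above every knockout mouse. A shared pattern follows from the search itself, which picked genes by profile, here and for Timp3 below. Gstp2, a glutathione transferase whose reads may be shared with its near copy Gstp1, had 1.83 ± 0.15 CPM in knockout and 9.91 ± 4.81 CPM in wild-type livers. Among the genes closest to Timp3 were Srxn1 (0.0818), Plxnd1 (0.0830), B3glct (0.0945) and Samd4 (0.116), each highest in wild-type mouse 1 and lowest in knockout mouse 3, with edgeR adjusted p values of 0.527 or more.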

How the data were processed

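Liver poly(A) RNA of 6 mice was sequenced, 1 library per mouse, and genotypes were taken from the labels, which name separate mice. The authors deposited raw read counts for each Ensembl gene. Per the submitters' processing notes HISAT2 2.0.5, StringTie 1.3.3b, featureCounts 1.5.0-p3 and GRCm38.p6 were used; how strand and multi-mapping reads were counted is not stated, so reads of overlapping genes cannot be told apart. GENCODE vM21 (GRCm38) gave symbols, positions and lengths for 54495 of 54682 rows; 150 unnamed gene models (0.273% to 0.509% of counts) were left out.

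Tests used edgeR 4.0.16 in R 4.3.3 (filterByExpr, TMM, robust quasi-likelihood F test on genotype, Benjamini-Hochberg over 14145 genes, threshold 0.05); the SE is the fold change over the square root of F. Alternatives were DESeq2 1.42.0, limma-voom 3.58.1, RLE scaling, 2 other count filters, a non-robust fit, library sizes with the unnamed models, mouse number as a block, and leaving out each library. The members and lists were chosen with earlier results of these data known. Named genes are the 10 members, Cd44, up to 4 per list by smallest p, and the 5 closest in profile to Mmp12 and to Timp3. Other genes were added after values were seen. These were untested genes of the chromosome 9 cluster, Adgre1, Trem2, Gpnmb, Marco, Cd5l, Timd4, Dcn, Ecm1, Reln, Colec11 and Eln. The ratios between genes were also added then. The rule also names 2 genes that are not reported here.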

Additional observations from a re-analysis of the deposited data

How the results depend on the processing

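All 10 members kept a lower mean in the knockout under each of the 8 alternatives that used all 6 libraries, and 9 to 10 did with 1 library left out. The members below an unadjusted p of 0.05 numbered 5 to 6 under every alternative, left-out libraries included. The number past an adjusted p of 0.05 was 2 without a low-count filter, 3 with DESeq2 and 0 to 1 with 1 library left out. Mmp12 had a log2 fold change of -2.39 both without a filter (adjusted p = 0.000254) and with DESeq2, passing in both, and -2.58 to -2.23 with 1 library left out, where it passed without wild-type 2 alone (adjusted p = 0.00547, against 0.12 to 0.658 without any other). Over all genes 91 were called without a filter, 340 with DESeq2, 0 with limma-voom and 0 to 132 with 1 library left out, the highest without wild-type 2; the cause was not tested. Cd44 was not called with limma-voom (-9.00, adjusted p = 0.283) or without knockout 1, 2 or 3 or wild-type 1 or 3 (adjusted p 0.0628 to 0.658). With 1 library left out, signs turned in the ranges of Timp2 (-0.35 to 0.19), Mmp28 (-0.040 to 1.68), Mmp11 (-0.51 to 0.0099), Cdh5 (-0.74 to 0.048), Clec4g (-0.064 to 0.40) and Samd4 (-0.40 to 0.041). With the mouse number as a replicate block Mmp12 gave -2.37 (unadjusted p = 0.000182, adjusted p = 0.448) and 1 gene was called; same-numbered mice correlated at -0.02 to -0.01 in their deviations, so the numbers were not taken as pairs. At the 2 to 12 counts of Mmp9 and Timp1 in the knockout, depth limits the size of a fold change.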
